A study of Rattus norvegicus with 9 samples.

Results

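The data cover 10 genes of the transforming growth factor beta (TGF-beta) system in the left ventricle of rats with heart failure after myocardial infarction (MI). The genes were taken by name from an expression table of 35843 genes: the ligands Tgfb1, Tgfb2 and Tgfb3, the related ligand subunit Inhba, the latent binding proteins Ltbp1, Ltbp2 and Ltbp3, the receptors Tgfbr1 and Tgfbr2, and the matrix protein gene Tgfbi. All 10 names were found, each on a single row. RNA-seq was performed on hearts of adult male SD rats at day 28, with 3 rats in each of 3 groups. Group Sham had the chest operation without ligation, group MI had a coronary artery (LAD) tied off for good, and both were gavaged with saline. Group MI + DAPA (1st d), here group DAPA, had the same artery tied and was gavaged daily with dapagliflozin (DAPA), an inhibitor of the sodium-glucose cotransporter of the kidney, from the first day. The methods name left ventricles for sequencing, and for molecular work in general mainly the infarct border with the scar cut away. The paper's results section instead calls the sequenced tissue normal myocardium for Sham rats and infarct myocardium for the ligated rats. How much scar the libraries hold is therefore not known, and each library is a mixture of heart cells. Expression is given as FPKM, fragments scaled by transcript length and by a denominator for each library, so levels of different genes in a rat can be set side by side.

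TGF-beta ligands are secreted in a latent complex with their own propeptide, and latent TGF-beta binding proteins join that complex and anchor it to fibrillin and other matrix. Integrins, proteases and thrombospondin can release the active ligand, which binds the type II receptor TGFBR2. TGFBR2 then phosphorylates the type I receptor TGFBR1, and TGFBR1 phosphorylates the SMAD proteins that act in the nucleus. In the infarcted heart the pathway is known for turning fibroblasts into matrix-producing cells. Of the latent binding proteins, LTBP1, LTBP3 and LTBP4 can attach to latent TGF-beta, while LTBP2 is a fibrillin-binding matrix protein that does not form that bond.

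The recovered read counts behind the FPKM values were between 13597239 and 17210909 per rat. Transcripts of the mitochondrial genome took 61.1% to 66.9% of the reads in Sham rats, 7.07% to 19.1% in MI rats and 17.5% to 32.0% in DAPA rats, so all other genes were read at 5702454 to 6570698 reads in Sham rats against 11440726 to 13171891 in the ligated groups. The denominator of the FPKM values was not the sum of these reads: relative to Sham replicate 1 it was 0.841 to 1.0 in Sham rats and 1.535 to 1.846 in the ligated rats, although each ligated rat had fewer recovered reads than each Sham rat. Every difference in FPKM between groups rests on that denominator. Cardiomyocyte markers marked every library as heart muscle, with a summed FPKM of 2144 to 18966. MI replicate 2 stood apart, with the lowest cardiomyocyte sum (2144), the highest macrophage sum (1575) and the highest B and plasma cell sum (3822) of the 9 rats. Without it the log2 differences of the 10 genes moved by 0.58 for Ltbp2 and by 0.24 or less for the others in MI vs Sham and in DAPA vs MI.

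The promoters of the 3 latent binding protein genes are shown first, because these genes were higher together after MI. Each line gives the 250 bases before the annotated transcript start, 5′ to 3′ on the strand of the gene, from RefSeq on build GRCr8: Ltbp1 at chr6:26177302-26177551 on the minus strand, Ltbp2 at chr6:110257299-110257548 on the minus strand and Ltbp3 at chr1:212458955-212459204 on the plus strand. Capitals mark every match, on either strand, to the Smad box CAGAC, the AP-1 site TGANTCA, the GC box GGGCGG or the TATA box TATAAA, and these motifs do not overlap here.
Ltbp1: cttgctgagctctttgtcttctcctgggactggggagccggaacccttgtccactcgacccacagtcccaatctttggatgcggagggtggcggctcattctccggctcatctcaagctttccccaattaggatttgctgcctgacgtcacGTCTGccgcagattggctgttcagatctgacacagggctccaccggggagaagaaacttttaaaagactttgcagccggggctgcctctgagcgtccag
Ltbp2: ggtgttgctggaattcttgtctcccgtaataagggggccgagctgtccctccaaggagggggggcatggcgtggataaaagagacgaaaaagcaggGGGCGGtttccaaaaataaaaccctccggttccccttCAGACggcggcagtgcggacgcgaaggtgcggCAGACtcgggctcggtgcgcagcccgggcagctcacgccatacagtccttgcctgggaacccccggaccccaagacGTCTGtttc
Ltbp3: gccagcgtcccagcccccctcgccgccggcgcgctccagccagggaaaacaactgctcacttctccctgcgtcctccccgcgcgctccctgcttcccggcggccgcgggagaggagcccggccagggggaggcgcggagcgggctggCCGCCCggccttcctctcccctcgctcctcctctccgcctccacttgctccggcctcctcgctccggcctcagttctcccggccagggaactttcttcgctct
Ltbp2 held 3 Smad boxes, at 117, 85 and 9 bases before the start, and 1 GC box. Ltbp1 held 1 Smad box and Ltbp3 held 1 GC box. Among the 10 genes a Smad box was found in 2 (Ltbp1 and Ltbp2) and in 42.9% of all 33469 rat promoters of this length, so the short motif is common. The GC box was found in 5 of the 10 (Ltbp2, Ltbp3, Tgfbr1, Tgfbr2 and Tgfbi) and in 30.5% of all promoters. The TATA box was found in 1 of the 10 (Inhba) and in 12.9% of all promoters, and the AP-1 site in 0 of the 10 and in 6.34% of all. A match is a description of the letters in this window.

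In group Sham, Tgfb1 had the highest level of the 10 genes, at 48.2 ± 10.8 FPKM (mean ± SD, n = 3), and its range did not overlap that of the next gene, Ltbp3, at 18.6 ± 1.07. Tgfb3 at 17.9 ± 3.49, Tgfbi at 14.4 ± 1.45, Ltbp1 at 10.1 ± 2.41, Tgfbr1 at 8.82 ± 1.04, Tgfbr2 at 7.83 ± 3.01, Ltbp2 at 4.08 ± 4.0 and Tgfb2 at 3.19 ± 0.612 followed, each overlapping its neighbour. Inhba was lowest, at 0.261 ± 0.168 FPKM from 3 to 10 reads per rat. In group MI the order was different: Tgfb3 (94.2 ± 26.3), Ltbp2 (84.4 ± 57.8), Ltbp3 (81.1 ± 19.7) and Tgfb1 (69.6 ± 5.45) led with overlapping ranges, and Tgfbr1 (7.55 ± 0.550) and Inhba (1.11 ± 0.645) were at the bottom. In group DAPA, Ltbp2 (80.7 ± 24.6), Tgfb3 (74.8 ± 26.6), Tgfb1 (73.6 ± 15.2) and Ltbp3 (60.9 ± 11.3) led, again with overlapping ranges, and the same 2 genes were last.

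**Figure D1:**
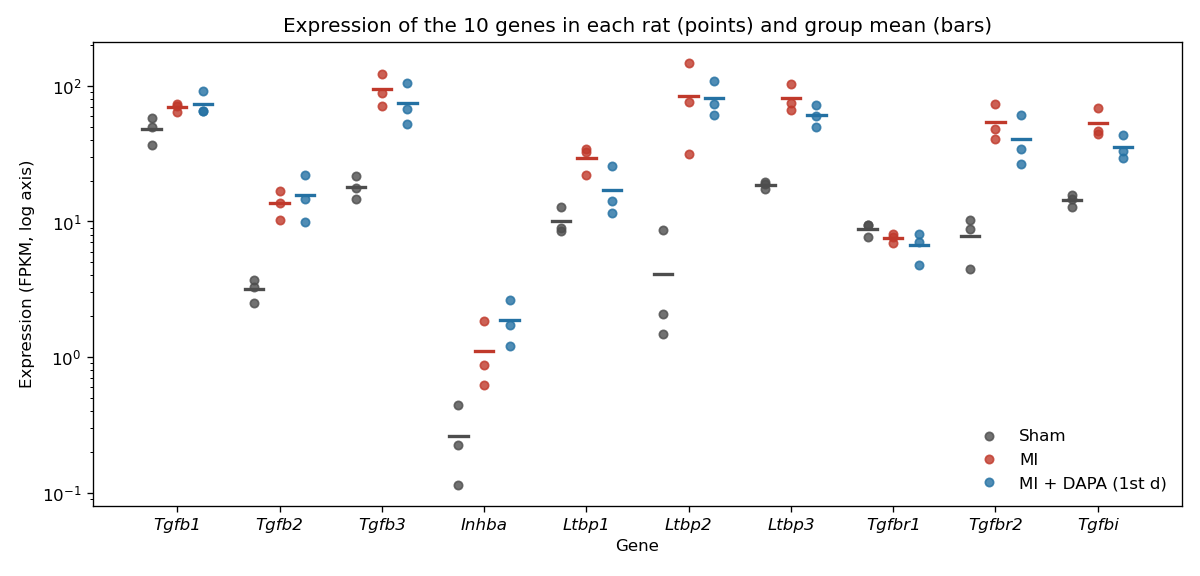
FPKM on a log axis (vertical) of the 10 genes (horizontal) in the 9 rats, with 1 point per rat and a bar at each group mean of 3 rats. The rats of group MI lie above those of group Sham for 9 genes, Tgfbr1 being the exception.

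The first comparison, MI vs Sham, asks which of these genes differed in the failing heart from the operated control. Of the 9 genes that passed the filter on low values (3 or more of the 6 rats with an FPKM of 1 or higher), 7 were called higher and 0 lower by limma on log2(FPKM + 1), at an unadjusted p under 0.05 with a log2 fold change beyond 1 in either direction. They were Tgfb2, Tgfb3, Ltbp1, Ltbp2, Ltbp3, Tgfbr2 and Tgfbi, and the same count of 7 held with a Benjamini-Hochberg adjusted p under 0.05. Over all 13485 genes tested, 12.1% were called higher and 10.3% lower, and 11.5% were called higher with the adjusted p. The groups did not overlap for 8 of the 9 tested genes, all higher in group MI, against 27.1% of all genes tested. The median log2 fold change was 1.79 over the 9 tested genes and -0.01 over all genes tested. With only 3 rats a group, each limma p-value sets a difference against the spread between these rats. That spread is drawn toward a prior variance from all genes tested.

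Tgfb1 encodes the ligand most studied in cardiac fibrosis. It (ENSRNOG00000020652) was at 58.0, 36.6 and 49.9 FPKM in Sham replicates 1 to 3 and at 71.5, 73.9 and 63.5 in MI replicates 1 to 3. Every MI rat was above every Sham rat, but the gap between the groups was small. The difference was 0.54 (SE 0.19) in log2(FPKM + 1), with an adjusted limma p of 0.0589, and did not pass the fold threshold.

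Tgfb3 (ENSRNOG00000009867), a ligand that signals through the same receptor pair, rose 5.27-fold in mean FPKM. It was at 21.5, 17.6 and 14.5 FPKM in the Sham rats and at 123, 71.1 and 88.6 in the MI rats, a gap of more than the whole Sham range. Its log2 difference was 2.32 (SE 0.24, adjusted limma p 0.00123). Tgfb2 (ENSRNOG00000002418), the ligand with the greatest need for the co-receptor betaglycan, rose 4.27-fold from a low level. Its values were 3.30, 2.53 and 3.74 FPKM in group Sham and 13.7, 10.2 and 16.8 in group MI, again without overlap. Its log2 difference was 1.79 (SE 0.22, adjusted limma p 0.0018).

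Tgfb1 thereby made up a smaller part of the ligand transcripts after MI. Its share of the summed Tgfb1, Tgfb2 and Tgfb3 FPKM was 69.3% ± 4.37 in Sham rats (SD, n = 3) against 39.9% ± 6.91 in MI rats (SD, n = 3), and that of Tgfb3 was 26.1% ± 4.83 and 52.4% ± 6.63. The Tgfb1 shares of the groups did not overlap, 64.6% to 73.2% against 34.4% to 47.6%. The two-sided exact permutation test gave p = 0.1, the smallest that 3 rats against 3 allow, and 0.15 after adjustment over the 9 share tests. A share within a library does not depend on how libraries are scaled to each other.

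Inhba (ENSRNOG00000014320) encodes the subunit of activin A, which signals through activin receptors to the same SMAD proteins. It was at 0.224, 0.114 and 0.445 FPKM in group Sham (6, 3 and 10 reads) and at 1.84, 0.621 and 0.878 in group MI (91, 28 and 43 reads). The groups did not overlap, but the gene fell short of the low-value filter in this comparison. Without a filter the difference was 0.71 and the gene was not called. With values rescaled to TPM over all rows it was called at 1.36, beside a median shift of 1.3 over all genes in that scaling. There it passed the filter only through the MI rats, where it is higher. With the mitochondrial genome left out of the TPM it was called at 1.13, with an adjusted limma p of 0.0824.

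Ltbp1, Ltbp2 and Ltbp3 all passed the test. Ltbp2 (ENSRNOG00000012094) showed the largest fold of the 10 genes, 20.7-fold in mean FPKM. It was at 8.69, 1.48 and 2.06 FPKM in group Sham and at 146, 31.2 and 76.2 in group MI, so both groups were widely spread and still did not overlap. The log2 difference was 4.09 (SE 0.67, adjusted limma p 0.0044). It ranged from 3.57 without MI replicate 1, the highest MI rat, to 4.70 without Sham replicate 1, the highest Sham rat, and was 4.67 without MI replicate 2. The promoter of Ltbp2 shown above is the only one of the 10 with more than 1 Smad box. The share of all promoters with more than 1 was not counted, and a link to the level of the gene was not tested.

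Ltbp3 (ENSRNOG00000020813), which helps its bound ligand to be secreted, had closely grouped Sham values. It was at 19.4, 17.4 and 19.0 FPKM in group Sham and at 103, 74.1 and 65.8 in group MI, with a log2 difference of 2.04 (SE 0.19, adjusted limma p 0.00103). Ltbp1 (ENSRNOG00000033090), the first described partner of latent TGF-beta, rose least of the 3. It was at 12.9, 8.47 and 8.98 FPKM in group Sham and at 34.0, 32.4 and 21.9 in group MI, with a log2 difference of 1.45 (SE 0.23, adjusted limma p 0.0039). All 3 MI rats were above all 3 Sham rats for both genes.

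The fourth family member, Ltbp4, was the most abundant in every rat. It was at 133 ± 9.14 FPKM in group Sham and 215 ± 61.3 in group MI, a log2 difference of 0.65 (SE 0.21) that did not pass the fold threshold. Its share of the summed Ltbp1 to Ltbp4 FPKM was 80.4% ± 3.24 in group Sham and 53.1% ± 2.58 in group MI. The share of Ltbp2 was 2.38% ± 2.23 in group Sham and 19.1% ± 7.98 in group MI, without overlap (exact permutation p = 0.1, adjusted 0.15).

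The receptors behaved unequally. Tgfbr2 (ENSRNOG00000013265), the type II receptor that binds the ligand, was at 10.3, 4.48 and 8.73 FPKM in group Sham and at 40.2, 72.8 and 48.0 in group MI. It rose by 2.65 on the log2 scale (SE 0.33, adjusted limma p 0.00183), and its highest value was in MI replicate 2. Without that rat the difference was 2.41. Tgfbr1 (ENSRNOG00000007036), the type I receptor, was at 9.46, 9.38 and 7.63 FPKM in group Sham and at 7.65, 8.04 and 6.96 in group MI. These groups overlapped, and the log2 difference of -0.20 (SE 0.15, 95% interval -0.56 to 0.16) did not pass the test. With values rescaled to TPM over all rows it was 1.20, beside a median shift of 1.3 over all genes in that scaling.

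Tgfbr1 was 47.9%, 67.7% and 46.6% of the summed Tgfbr1 and Tgfbr2 FPKM in the Sham rats and 16.0%, 9.95% and 12.7% in the MI rats. The lowest Sham share was above the highest MI share by a wide gap (means 54.1% ± 11.8 and 12.9% ± 3.02, exact permutation p = 0.1, adjusted 0.15).

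**Figure D2:**
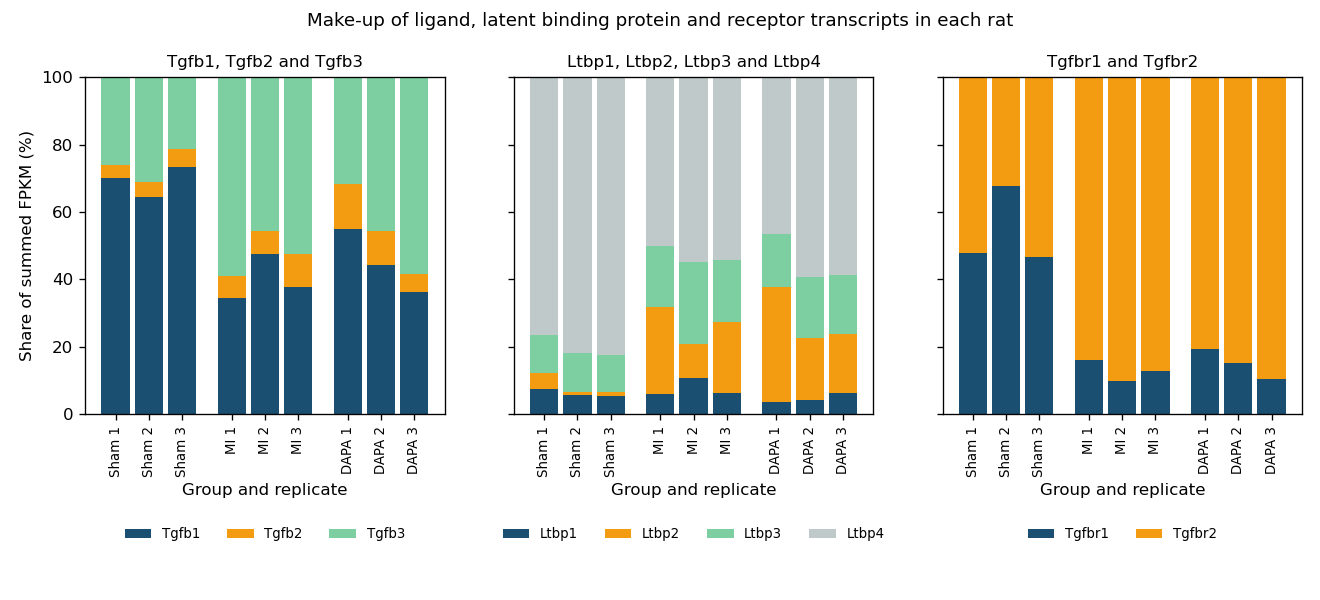
Share of summed FPKM in percent (vertical, from 0 to 100) taken by each gene within the ligands, the latent binding proteins and the receptors, with 1 stacked bar per rat, DAPA standing for the treated group. Tgfb1, Ltbp4 and Tgfbr1 take a smaller share in each of the 6 ligated rats than in each of the 3 Sham rats.

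Tgfbi (ENSRNOG00000012216) encodes a secreted matrix protein named for its induction by TGF-beta. It was at 14.7, 15.7 and 12.8 FPKM in group Sham and at 46.7, 68.4 and 44.1 in group MI, highest in MI replicate 2. It rose by 1.79 on the log2 scale (SE 0.20, adjusted limma p 0.00141). Without MI replicate 2 the difference was 1.59.

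The second comparison, DAPA vs MI, asks whether these genes differed between treated and untreated ligated rats. All 10 genes were tested, and limma called 0 of them higher and 0 lower, where 1.11% of the 13251 genes tested were called lower. With an adjusted p under 0.05, 0 genes of the whole table were called. At an unadjusted p under 0.05 with no fold threshold there were 2 of the 10 (Ltbp1 and Tgfbi, both lower), against 8.49% of all genes in either direction. The groups did not overlap for 1 of the 10 (Tgfbi, lower), against 7.16% of all genes. The median log2 fold change was -0.27 over the 10 genes and -0.02 over all genes.

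Ltbp1 was at 34.0, 32.4 and 21.9 FPKM in the MI rats and at 11.6, 14.2 and 25.5 in the treated rats. DAPA replicate 3 was above the lowest MI rat, so the groups overlapped. The log2 difference was -0.80 (SE 0.31, 95% interval -1.53 to -0.07, limma p 0.0363, adjusted 0.558). Without that treated rat it was -1.11 and passed both thresholds, and without MI replicate 2 it was -0.72.

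Tgfbi was at 46.7, 68.4 and 44.1 FPKM in the MI rats and at 33.2, 43.0 and 29.4 in the treated rats. The highest treated rat was just below the lowest MI rat. The log2 difference was -0.57 (SE 0.22, 95% interval -1.10 to -0.04, limma p 0.0390, adjusted 0.558), under the fold threshold. Without MI replicate 2 it was -0.37.

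The other 8 genes overlapped between these groups. Tgfb3 was at 52.7, 67.4 and 104 FPKM in the treated rats (log2 difference -0.35, 95% interval -1.07 to 0.37), Ltbp3 at 50.1, 59.9 and 72.6 (-0.40, -0.93 to 0.13) and Tgfbr2 at 34.3, 26.7 and 60.8 (-0.43, -1.25 to 0.38). For these 3 genes the intervals reach from a fall to a small rise. The Tgfbr2 difference was -0.20 without MI replicate 2, -0.18 without DAPA replicate 2 and -0.76 without DAPA replicate 3. Tgfbr1 was at 8.15, 4.74 and 7.08 FPKM in the treated rats, a log2 difference of -0.18 (95% interval -0.65 to 0.28) that turned to 0.010 without DAPA replicate 2.

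Tgfb1 was at 91.2, 65.1 and 64.6 FPKM in the treated rats, a log2 difference from group MI of 0.06 (95% interval -0.36 to 0.49). Tgfb2 was at 22.2, 14.7 and 9.90 (0.14, -0.58 to 0.86) and Ltbp2 at 108, 60.8 and 73.0 (0.15, -1.12 to 1.42). For these 3 genes the sign was negative with values rescaled to TPM over all rows and without DAPA replicate 1. Without MI replicate 2 it was also negative for Tgfb2 (-0.036) and for Ltbp2 (-0.42), and without MI replicate 3 for Tgfb1 (-0.00027). The interval of Tgfb1 lies within the fold threshold on both sides, while that of Ltbp2 does not. Inhba was at 2.66, 1.22 and 1.73 FPKM in the treated rats (112, 50 and 80 reads), a log2 difference of 0.45 (95% interval -0.24 to 1.15).

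The shares also overlapped between these groups. Tgfb1 was 45.1% ± 9.43 of the ligand FPKM in group DAPA and 39.9% ± 6.91 in group MI (exact permutation p = 0.6). Ltbp2 was 23.3% ± 9.36 and 19.1% ± 7.98 of the latent binding protein FPKM (p = 0.7 in the exact permutation test), and Tgfbr1 was 14.9% ± 4.39 and 12.9% ± 3.02 of the receptor FPKM (p = 0.6 in the exact permutation test). The mean differences in the Ltbp2 and Tgfbr1 shares turned negative without DAPA replicate 1, and that in the Ltbp2 share also without MI replicate 2.

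**Figure D3:**
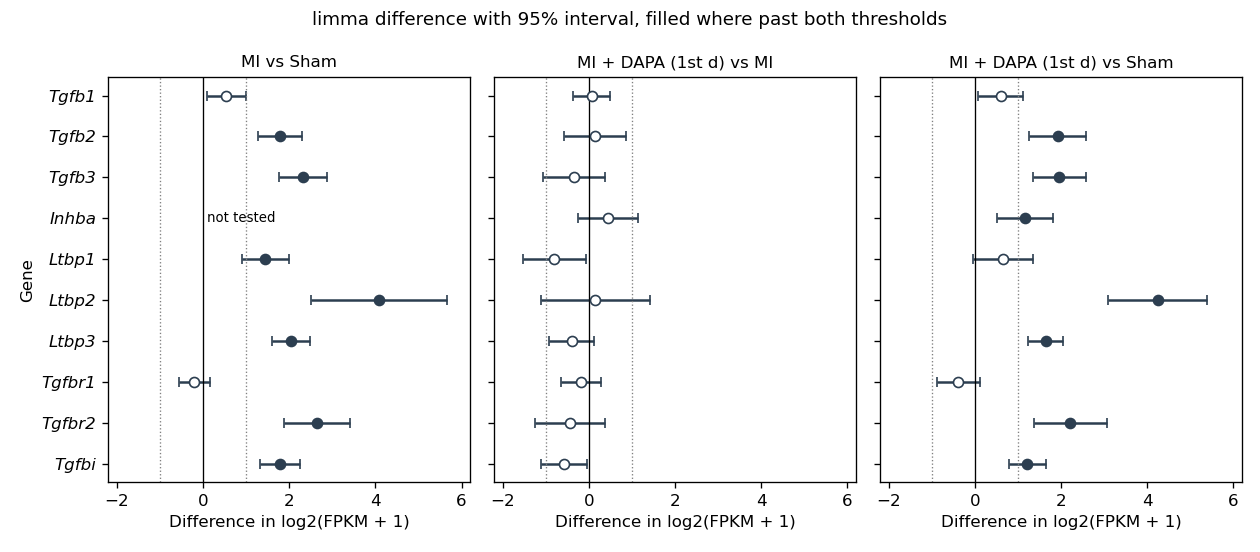
Difference in log2(FPKM + 1) with its 95% interval from limma (horizontal) for each gene (vertical) in the 3 comparisons of 3 rats with 3, filled where p was under 0.05 and the fold threshold (dotted lines at -1 and 1) was passed. The panels hold 7 filled points for MI vs Sham, 0 for DAPA vs MI and 7 for DAPA vs Sham with Inhba among them, and Inhba was not tested in the first.

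The third comparison, DAPA vs Sham, sets the treated rats against the same 3 Sham rats as before, so it shares its control values with the first. All 10 genes were tested, but Inhba passed the low-value filter only through the treated rats, where it is higher, and is left out of the counts. Of the other 9 genes, 6 were called higher and 0 lower. Of the 12912 genes with an FPKM of 1 or higher in a rat of both groups, 8.74% were called higher, and over all 13359 genes tested 9.54% were called higher and 8.16% lower. The groups did not overlap for 7 of the 9, all higher in the treated rats, against 23.2% of all genes. The median log2 fold change was 1.64 over the 9 genes and 0.01 over all genes.

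Ltbp2 was again furthest from Sham, with a log2 difference of 4.24 (SE 0.49, adjusted limma p 0.0023). Tgfbr2 followed at 2.22 (SE 0.36), Tgfb3 at 1.97 (SE 0.27), Tgfb2 at 1.93 (SE 0.28), Ltbp3 at 1.64 (SE 0.17) and Tgfbi at 1.22 (SE 0.18), all past both thresholds. Inhba was called at 1.16 (SE 0.28, adjusted limma p 0.0208), and could not be tested with any 1 of the treated rats left out. Tgfb1 at 0.61 (SE 0.22) and Ltbp1 at 0.65 (SE 0.30) did not pass the fold threshold, and Ltbp1 overlapped with Sham. Tgfbr1 at -0.38 (95% interval -0.88 to 0.12) did not pass either, and its sign was positive (0.67) with values rescaled to TPM over all rows.

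Side by side, Ltbp1 had a log2 difference from Sham of 1.45 in group MI and 0.65 in group DAPA, and Tgfbi had 1.79 and 1.22. These pairs of values use the same Sham rats, and the direct comparison of the ligated groups is the one given above.

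The rats of a group differed among themselves in a way that set the genes apart. In group MI, replicate 1 was highest for Tgfb3, Ltbp1, Ltbp2, Ltbp3 and Inhba. Replicate 2 was highest for Tgfb1, Tgfbr1, Tgfbr2 and Tgfbi and lowest for Tgfb2, Tgfb3, Ltbp2 and Inhba. In group DAPA, replicate 3 was highest for Tgfb3, Ltbp1, Ltbp3 and Tgfbr2, and replicate 1 was highest for Tgfb1, Tgfb2, Ltbp2, Inhba and Tgfbr1.

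For each gene, the genes whose deviations from their own mean over the 9 rats were nearest were sought among 13078 genes, by the mean absolute difference in log2(FPKM + 1). The nearest genes to Ltbp2 were Col8a1 (mean difference 0.33, against a mean deviation of 1.85 for Ltbp2 itself) and Col8a2 (0.38), 2 collagen VIII chains. Col8a1 was at 2.49 FPKM on average in Sham rats, 54.7 in MI rats and 57.8 in DAPA rats. The nearest to Tgfbr2 were Il6st (0.14), the shared receptor chain of the interleukin-6 family, and Fcer1g (0.17), a signalling chain of immune Fc receptors. The nearest to Tgfb3 were Mamdc2 and Oaf (0.16 each), to Ltbp3 Itga9 and Casc4 (0.13 each), to Ltbp1 Pcsk5 (0.15) and Thbs3 (0.16), and to Tgfbi Zbed3 (0.12) and Sla (0.13). The nearest to Tgfb2 were Tceal9 (0.18) and Eid2 (0.20), to Inhba Mvk and Chad (0.15 each), to Tgfb1 Nsun2 (0.06) and Nus1 (0.07), and to Tgfbr1 Trappc8 (0.06) and Ap1m1 (0.08). These are descriptions over 9 libraries that differ in group and depth.

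The other genes of the pathway were read from lists by role. The counts in MI vs Sham stand beside 12.1% higher and 10.3% lower over all genes, and those in DAPA vs MI beside 1.11% called lower and 8.49% with a p under 0.05 in either direction. Among genes of latency and activation, 7 of 15 tested were called higher in MI vs Sham and 0 lower (median log2 fold change 0.97), or 6 of 14 (median 0.84) without Plau, which passed the filter only through the MI rats. Itgb5, an integrin chain that can take part in releasing TGF-beta, was at 2.68 ± 1.43 FPKM in group Sham and 27.4 ± 6.28 in group MI (log2 difference 2.99, SE 0.30). Plau, the urokinase plasminogen activator, rose by 2.26 on the log2 scale (SE 0.22), and Emilin1, a matrix protein that restrains processing of the TGF-beta precursor, rose by 1.42 (SE 0.16). In DAPA vs MI, 0 of 14 were called by limma, and 1 had a p under 0.05, no more than the share over all genes (Plau, at 7.46 ± 1.94 FPKM in MI rats and 4.15 ± 1.54 in the treated rats, log2 difference -0.74, limma p 0.0312, adjusted 0.558).

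Among other receptors and co-receptors, 2 of 10 tested were called higher and 1 lower in MI vs Sham (median 0.19), near the shares of 12.1% and 10.3% over all genes. Tgfbr3, which encodes betaglycan and presents TGF-beta 2 to the receptors, was at 5.60 ± 1.26 FPKM in group Sham and 28.4 ± 3.38 in group MI (log2 difference 2.17, SE 0.19). Bmpr1a, a type I receptor for bone morphogenetic proteins, rose by 1.44 (SE 0.25). Acvrl1, a type I receptor of endothelial cells, fell by 1.24 on the log2 scale (SE 0.14), from 97.5 ± 5.05 to 41.0 ± 4.89 FPKM, but was at 0.30 and not called with values rescaled to TPM over all rows. In DAPA vs MI, 0 of 9 were called by limma, and 1 had a p under 0.05, near the 8.49% of all genes (Tgfbr3, named after its value was seen, at 18.5 ± 0.595 FPKM in the treated rats, log2 difference -0.59, limma p 0.00365, adjusted 0.558).

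Among Smads and their regulators, 3 of 15 were called higher and 0 lower in MI vs Sham (median 0.21), which is near the 12.1% of all genes called higher. The 3 encode repressors of SMAD-driven transcription: Skil (1.42, SE 0.29), Ski (1.34, SE 0.20) and Tgif1 (1.17, SE 0.16). Among other ligands of the superfamily, 2 of 9 were called higher and 0 lower (median 0.68), or 1 of 8 (median 0.47) without Gdf6, which passed the filter only through the MI rats. They were Gdf6, which was at 0 in 2 of the Sham rats and at 2.06 ± 0.808 FPKM in group MI, and Inhbb, the activin B subunit, at 1.57 ± 0.485 and 5.37 ± 2.55 FPKM. In DAPA vs MI, limma called 0 of 15 and 0 of 8 in these lists, with 0 at a p under 0.05 in each.

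Among extracellular antagonists, 6 of 8 were called higher and 0 lower in MI vs Sham (median 2.32), beside 12.1% of all genes called higher. Bgn, which encodes the proteoglycan biglycan, was at 105 ± 65.4 FPKM in group Sham and 1100.3 ± 417 in group MI (log2 difference 3.50, SE 0.45). Fstl1, a follistatin-like secreted protein, rose by 2.81 (SE 0.34), and Dcn, the TGF-beta binding proteoglycan decorin, by 1.5 (SE 0.21). Dcn is also on the fibroblast marker list. In DAPA vs MI, limma called 0 of 8, with 0 at a p under 0.05.

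Among genes known to respond to TGF-beta, 12 of 18 were called higher and 0 lower in MI vs Sham (median 2.59), beside 12.1% of all genes called higher. Skil, 1 of the 12, is also counted among the Smads and their regulators. These lists also share Pmepa1 and Smad7, which were not called in MI vs Sham. Col1a1 and Col3a1, the chains of the main fibrillar collagens, rose by 5.44 (SE 0.51) and 4.53 (SE 0.39), and Loxl2, a collagen crosslinking enzyme, by 2.98 (SE 0.37). Acta2 and Tagln, the smooth muscle actin and transgelin genes that mark myofibroblasts and vessel walls, were not called. Acta2 was at 356 ± 210 FPKM in group Sham and 230 ± 37.9 in group MI, with Sham replicate 2 lowest of all. In DAPA vs MI, 1 of 18 was called, beside 1.11% of all genes called lower. It was Col1a1, which was at 1012, 1393 and 650 FPKM in the MI rats and at 312, 441 and 602 in the treated rats (log2 difference -1.15, SE 0.37, limma p 0.0176, adjusted 0.558). The groups did not overlap for Col1a1. Each gene of the 6 lists called higher in MI vs Sham was also called higher in the 3 rescalings. With TPM over all rows the response genes called lower in DAPA vs MI numbered 4. They were Col1a1, Col3a1, Fn1 and Lox, the last pair named after their values were seen. In that scaling 557 of all 14685 genes tested were called lower, and the median over all genes was -0.34.

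**Figure D4:**
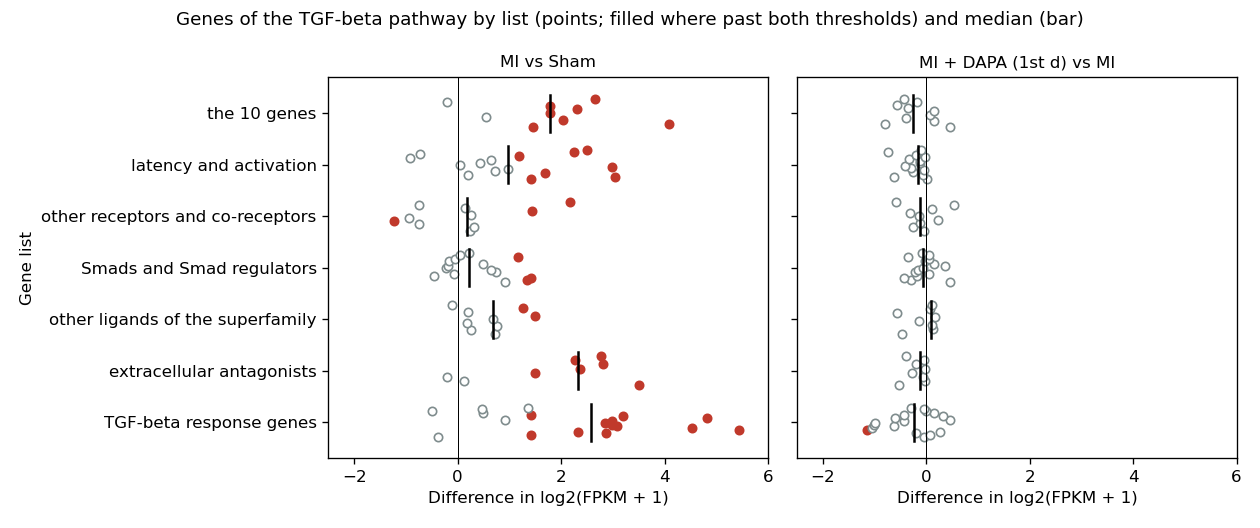
Difference in log2(FPKM + 1) (horizontal) of each tested gene by list (vertical), as 1 point per gene with a bar at the list median, for MI vs Sham and DAPA vs MI, filled where past both thresholds. Medians run from 0.19 for the other receptors to 2.59 for the response genes in MI vs Sham, and Col1a1 is the only filled point in DAPA vs MI.

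Markers of several cell types moved with the groups. The 8 fibroblast markers summed to 732 to 986 FPKM in Sham rats, 2619 to 3244 in MI rats and 2466 to 3768 in DAPA rats. Gsn weighed heavily in these sums, with a mean of 939 FPKM in MI rats and 1440 in DAPA rats. Each of the other fibroblast markers had a lower mean in DAPA rats than in MI rats. The median log2 fold change of the list in DAPA vs MI was -0.37, beside -0.02 over all genes. The 9 macrophage markers summed to 99.97 to 221, 830 to 1575 and 438 to 965, and the 7 endothelial markers measured summed to 974 to 1175, 279 to 366 and 379 to 421. For these 3 lists the ligated rats did not overlap with the Sham rats. The 8 T cell markers summed to 12.5 to 28.1, 64.0 to 275 and 35.0 to 68.0, and the 6 B and plasma cell markers measured to 6.07 to 12.6, 35.8 to 3822 and 11.04 to 16.6. The 9 cardiomyocyte markers measured summed to 7464 to 10691, 2144 to 11438 and 8984 to 18966, the 7 smooth muscle markers to 412 to 1461, 535 to 730 and 498 to 738, and the 5 epicardial and mesothelial markers to 32.8 to 39.8, 9.42 to 96.2 and 10.003 to 14.6. Genes of the cardiomyocyte list went different ways. Mean Tnni3 was 3312 FPKM in Sham rats, 783 in MI rats and 2040 in DAPA rats. Mean Actc1 was 633, 1402 and 2764, with the MI rats overlapping the Sham rats. The genes of the epicardial and mesothelial list also differed in direction. Mean Wt1 was 35.9 FPKM in Sham rats and 7.79 in MI rats, and mean Msln was 0.585 and 31.8. The 4 adipocyte markers stayed at or below 9.37 FPKM in sum, with Adipoq, Plin1 and Cidec at 0 in all Sham rats.

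DAPA replicate 3, highest of its group for Tgfb3, Ltbp1, Ltbp3 and Tgfbr2, was also highest for the fibroblast sum (3768) and the macrophage sum (965). It was the lowest of its group for Tgfb1 (64.6 FPKM), Tgfb2 (9.90) and Tgfbi (29.4). MI replicate 2, highest of its group for Tgfb1, Tgfbr1, Tgfbr2 and Tgfbi, had the highest macrophage sum (1575). It also had the highest fibroblast sum of its group (3244), and was the lowest of its group for Tgfb2, Tgfb3, Ltbp2 and Inhba. The part of cell makeup in these values was not tested, and in bulk tissue fewer cells of a type and less RNA per cell cannot be told apart. Without MI replicate 2, the count in MI vs Sham was still 7 higher and 0 lower.

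**Figure D5:**
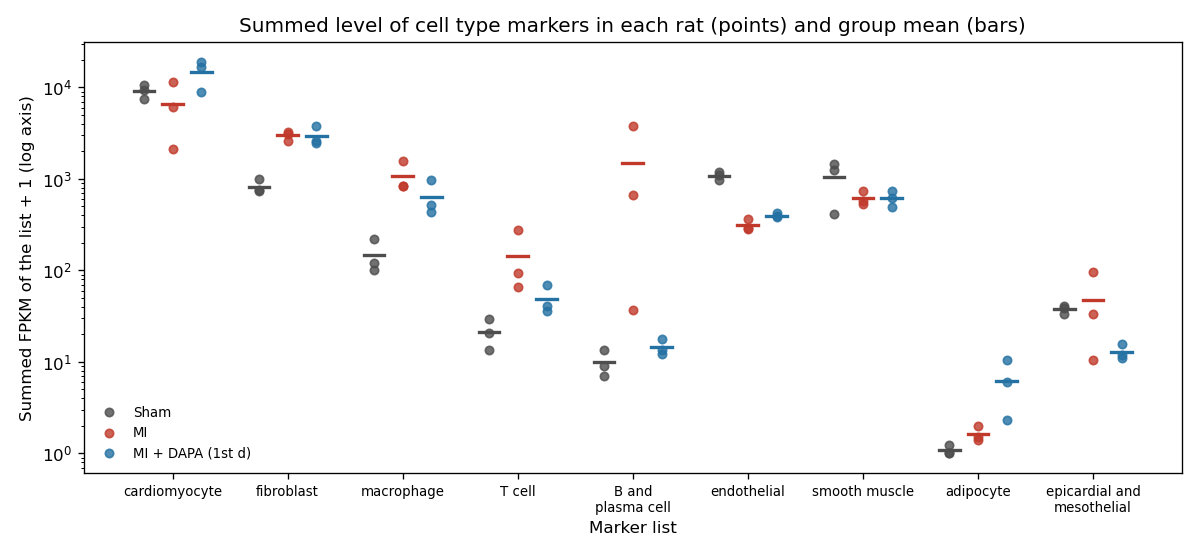
Summed FPKM plus 1 on a log axis (vertical) of each marker list (horizontal) in the 9 rats, with 1 point per rat and a bar at the group mean. Fibroblast and macrophage sums are higher and endothelial sums lower in all 6 ligated rats than in the 3 Sham rats.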

How the data were processed

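Poly-A selected libraries of left ventricular RNA from 9 rats, 3 per group, were read as paired ends. The authors deposited 1 FPKM value per gene and rat for 35843 rows, of which 2960 carry no gene symbol. The submitters' processing notes name HISAT2 2.0.5, StringTie 1.3.3b and featureCounts 1.5.0-p3. The genome build is not given in the sources used here, so no coordinates of the files are printed. The number of columns not used is 0.

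FPKM is not a count, so limma 3.58.1 in R 4.3.3 was run on log2(FPKM + 1) of the deposited FPKM values, fitting 2 groups at a time, with a prior variance following mean expression, on genes where 3 or more of the 6 rats had an FPKM of 1 or higher. Fold changes on this scale understate the change of low genes. Calls followed the thresholds of the study, a p under 0.05 with a log2 fold change beyond 1 in either direction. Benjamini-Hochberg adjustment over all genes tested is given beside them. The test was checked on simulated data, with the same dispersion set for all genes and with changes beyond the fold threshold. That check does not show how the test performs for genes with more spread or smaller changes. Whole reads (tolerance 0.01) were recovered from the FPKM steps for 18896 of 18896 genes with values in at least 4 libraries. They served for depth, the read counts of Inhba, the comparison of library pairs and the simulated data, and not for the limma tests. Read counts of low genes carry counting error besides the differences between rats.

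Named genes were the 10 genes, at most 3 called genes per pathway list and comparison, and the 2 nearest genes to each. Ltbp4 stands in a share. Acta2, Tagln, Fn1, Lox, Gsn, Wt1, Msln, Tnni3, Actc1, Pmepa1 and Smad7 were named beyond this rule, after their values were seen. So were the DAPA vs MI values of Plau and Tgfbr3. The genes and lists were chosen with earlier results of these data known. Library pairs within a group differed beyond sampling noise (chi-square per gene at least 28.5). Ttn, Pecam1 and Cd79a were not analysed here. Python 3.11.15 with pandas 2.3.3 and matplotlib 3.10.9 drew the plots.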

Additional observations from a re-analysis of the deposited data

How the results depend on the processing

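Of 620 alternative values of 44 results, 593 kept their direction and their side of the threshold or, for counts of called genes, lay within 1.5 times the reported count. Of the rest, 9 passed a threshold they had missed, 3 counts moved by more than that and 15 values changed sign. The settings with an adjusted p and with no fold threshold reuse the main fit, so no sign could change there. The same holds for log2 differences in the fits with no filter, with all 9 rats, with the replicate block and with no trend. Those fits leave the difference between group means as it was, so part of the agreement was fixed in advance. Every sign change other than those of Tgfbr1 against Sham was in DAPA vs MI. In MI vs Sham, 7 genes were called higher in 13 of the 16 alternatives, and 8 or 10 in the rest. Inhba is counted in both TPM rescalings. In DAPA vs Sham, 7 with Inhba counted were called higher in 11 of the 16, 8 or 9 in 2 others, and 6 without any 1 of the treated rats. Genes called lower in DAPA vs MI numbered 1 with values rescaled to TPM over all rows, beside 557 of all 14685 genes tested. They numbered 2 with no fold threshold, beside 517 of all 13251. When each rat was left out they numbered 0 to 1. The 1 was Ltbp1 without DAPA replicate 3, beside 205 of all 12942 genes. Rescaling to TPM over all rows, where mitochondrial transcripts enter the denominator, shifted the median of all genes by 1.3 for MI vs Sham, -0.34 for DAPA vs MI and 1.003 for DAPA vs Sham. In that scaling Tgfbr1 was at 1.20 against Sham for MI rats and 0.67 for DAPA rats, and Tgfb1 was at -0.30, Tgfb2 at -0.21 and Ltbp2 at -0.21 in DAPA vs MI. It split all genes called in MI vs Sham into 9214 higher and 198 lower, against 1634 and 1390 in the values as deposited.

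Leaving out each rat in turn in DAPA vs MI gave -0.10 to 0.15 for Tgfb1, -0.14 to 0.41 for Tgfb2, -0.42 to 0.67 for Ltbp2 and -0.33 to 0.010 for Tgfbr1. The difference in the Ltbp2 share ranged from -1.13 to 7.59 percentage points and that in the Tgfbr1 share from -0.10 to 4.29. In the labels the rats of different groups share only a replicate number. Deviations of same-numbered rats correlated at -0.32 to 0.20. Their means were 0.02 in MI vs Sham, -0.18 in DAPA vs MI and 0.10 in DAPA vs Sham. Rats with other numbers had means of -0.01, 0.09 and -0.05. With 3 numbers a comparison, these values cannot settle whether the numbers pair rats. In a fit that holds the replicate block, the called genes numbered 7 for MI vs Sham, 0 for DAPA vs MI and 7 for DAPA vs Sham, the same as without it. The cause of the changes was not tested. With 3 rats a group, an exact test cannot go below 0.1, and the 19 Inhba reads in group Sham limit what can be said of that gene.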
